A study of Mus musculus with 103 samples.

Results

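The 9 genes described here encode secreted cytokines of the IL-6, IL-10 and IL-12 families: Il6, Lif and Osm of the IL-6 family, Il10, and the IL-12 family chains Il12a, Il12b, Il23a, Il27 and Ebi3. They were taken by symbol from a table of 24014 gene symbols (33022 transcripts), and where a symbol had several transcripts the one with the highest mean level was used. All 9 were in the table. The cells were macrophages that enter the peritoneum after thioglycollate, taken 3 to 4 days after the injection from male C57BL/6 mice aged 6 to 8 weeks and kept overnight in 0.5% serum before treatment. Poly(A) RNA was sequenced in 6 libraries, 1 per condition: untreated cells that were the control of the 1 to 12 h times, cells given Kdo2-lipid A (KLA, the lipid core of lipopolysaccharide, which activates the receptor TLR4) at 100 ng/ml for 1, 6, 12 or 24 h, and a second untreated library used as the control for 24 h. All mice were of the same strain with no altered gene, and none of the 6 RNA libraries had been given the LXR agonist GW3965. SREBP1 and LXR are transcription regulators of lipid synthesis and cholesterol export. Their binding came as 1 peak list each from cells of the same kind given 1 µM GW3965. The SREBP1 label gives 18 h of GW3965. For LXR the peak header gives 5 h, while that sample's treatment label reads as a control. The sources used here do not say how many mice contributed to a library.

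Macrophages that sense lipopolysaccharide through TLR4 activate NF-κB, AP-1 and interferon regulatory factors, and these factors drive cytokine genes in waves. IL-12 family cytokines are pairs of chains. IL-12 is p35 (Il12a) with p40 (Il12b), IL-23 is p19 (Il23a) with p40, IL-27 is p28 (Il27) with the Ebi3 chain, and IL-35 is p35 with Ebi3, so the RNA of 1 chain alone does not give the level of the cytokine. IL-6, LIF and OSM signal through receptors that share the chain Il6st, and IL-10 signals through STAT3 to restrain the macrophage response.

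Levels are RPKM, reads scaled to transcript length and library size. The scaling allows for length but not for other differences between genes in how reads are assigned, so comparisons between genes are approximate. The libraries were shallow, with 2205187 to 2674826 reads, and 3 reads in a transcript of 1 kb were worth 1.12 to 1.36 RPKM. The number of reads behind each value was recovered from it, and the 95% intervals below (exact, Clopper-Pearson) cover counting error only. With 1 library a condition there is no replicate spread and no test between conditions. Where a gene had no read in the control, the fold is written as a bound against 3 reads. Hmgcs1, a gene of cholesterol synthesis used by every cell, was at 0 RPKM in every library, which shows that a value of 0 can be a failed estimate, and members without a read are said to be listed at 0. Each of the 9 members had reads in at least 3 of the 6 libraries. The macrophage markers were all detected (8 of 8, summed level 6534 to 11262 RPKM). Markers of T and NK cells summed to 0.430 to 1.68 RPKM, and 0 of 8 passed the filter on low values. Of the B cell markers 4 of 6 passed, with a summed level of 5.68 to 13.2 RPKM. Of the mast cell and eosinophil markers 1 of 6 passed, with a summed level of 0.912 to 8.02 RPKM. Of the neutrophil markers 3 of 8 passed, with a summed level of 41.8 to 122 RPKM that came mostly from S100a8. Mpo was at 0. Markers of fibroblasts and mesothelium (7 of 7 passed) summed to 97.6 to 182 RPKM.

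Il6 was the most abundant of the 9 at 6, 12 and 24 h of KLA. Its level was 0.418 RPKM (1 read) in the untreated library for 1 to 12 h, 10.4 (27 reads) at 1 h, 554 (1428 reads) at 6 h, 175 (466 reads) at 12 h, 0.356 (1 read) in the untreated library for 24 h and 88.5 (257 reads) at 24 h. All 4 KLA libraries stood far above both untreated ones, with a single maximum at 6 h. The ratio to the untreated library was 24.8 at 1 h (interval 4.09 to 1016), 1327 at 6 h (238 to 52455), 420 at 12 h (75.0 to 16621) and 249 at 24 h (44.2 to 9857), the wide upper ends coming from the single control read. Comparisons among KLA libraries are much tighter: Il6 was 53.5-fold higher at 6 h than at 1 h (36.6 to 81.5), 3.16-fold lower at 12 h than at 6 h (2.85 to 3.52) and 1.98-fold lower at 24 h than at 12 h (1.70 to 2.32). The change at 6 h placed Il6 at position 7 among the 10605 genes tested, which are those with at least 1 RPKM in 2 libraries. The NM_031168 transcript lies at chr5:30339701-30346508 on the plus strand of build mm9. In bulk RNA, fewer cells that express a gene and less RNA per cell cannot be told apart, for Il6 and for the genes below.

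Promoter sequence was held for 5 of the 9 members in RefSeq's table of build GRCm38.p6, a later build than that of the RNA and peak files. The 250 bases before the start site are printed for Il6, Il12b and Ebi3. Il6 reached the highest level of the 9 with KLA, and Ebi3 had the highest untreated level. Il12b is the chain shared by IL-12 and IL-23. Capitals mark matches to 6 motifs: the κB consensus, C/EBP (TTNNGNAA), AP-1 (TGANTCA), the cAMP response element (TGACGTCA), a pair of interferon regulatory sites (2 copies of GAAA on 1 strand with 2 bases between them) and, on the sense strand only, TATAAA. The 3 windows lie at chr5:30012864-30013113, chr11:44399813-44400062 and chr17:55952373-55952622, all on the plus strand.
Il6: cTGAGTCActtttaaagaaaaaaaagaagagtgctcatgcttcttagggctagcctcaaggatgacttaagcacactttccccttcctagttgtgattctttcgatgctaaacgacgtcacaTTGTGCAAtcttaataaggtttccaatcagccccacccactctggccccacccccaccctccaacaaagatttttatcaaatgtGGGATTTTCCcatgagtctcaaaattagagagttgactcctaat
Il12b: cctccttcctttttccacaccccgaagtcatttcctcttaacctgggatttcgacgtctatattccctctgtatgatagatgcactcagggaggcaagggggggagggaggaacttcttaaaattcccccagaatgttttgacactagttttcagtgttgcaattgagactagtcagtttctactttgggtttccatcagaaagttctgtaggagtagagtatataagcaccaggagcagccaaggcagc
Ebi3: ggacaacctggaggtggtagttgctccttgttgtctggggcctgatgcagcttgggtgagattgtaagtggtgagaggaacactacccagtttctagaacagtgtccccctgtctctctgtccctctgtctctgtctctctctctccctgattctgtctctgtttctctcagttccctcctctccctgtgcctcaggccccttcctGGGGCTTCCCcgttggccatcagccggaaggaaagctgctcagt
The Il6 window held 3 of the motifs. They were an AP-1 match TGAGTCA starting 249 bases before the start site, a C/EBP match TTGTGCAA at 128 bases before it and a κB match GGGATTTTCC at 44 bases before it. The Ebi3 window held a κB match GGGGCTTCCC, also starting at 44 bases before its start site. The Lif window held an AP-1 match TGACTCA at 228 bases before its start site. The Il12b window and both Il12a windows held none of the 6 motifs, which says only that these letters were not in these windows. Among all 32851 promoters of the table, cut to the same 250 bases, 3.9% held the κB consensus, 36.8% the C/EBP motif, 6.75% AP-1, 1.55% the cAMP response element, 2.98% the interferon pair and 7.59% TATAAA. All but TATAAA were searched on both strands. A match is a run of letters, not a measured site.

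Lif and Osm, the other IL-6 family members, lie next to each other on chromosome 11, with 16542 bases from the end of Osm (chr11:4136788-4141029) to the start of Lif (chr11:4157571-4172517), both on the plus strand in mm9. They did not share a time course. Lif, leukaemia inhibitory factor, was listed at 0 in the untreated library for 1 to 12 h, at 5.61 RPKM (54 reads) at 1 h, 0.945 (9 reads) at 6 h, 1.12 (11 reads) at 12 h, 0.0963 (1 read) in the untreated library for 24 h and 1.77 (19 reads) at 24 h. Its maximum was the earliest time, at least 16.5-fold above the control, and it was 5.93-fold lower at 6 h than at 1 h (2.91 to 13.7). Osm, oncostatin M, was present before treatment, at 2.62 RPKM (11 reads) and 1.42 (7 reads) in the untreated libraries for 1 to 12 h and 24 h. With KLA it stood at 10.9 (50 reads), 11.9 (54 reads), 8.58 (40 reads) and 7.45 RPKM (38 reads) at 1, 6, 12 and 24 h. All 4 KLA values were above both untreated ones, 4.18-fold (2.15 to 8.90), 4.56-fold (2.36 to 9.68), 3.28-fold (1.65 to 7.08) and 5.25-fold (2.32 to 13.9) in the order of time. From 1 to 24 h no step of Osm between neighbouring times exceeded counting error, the widest being 1.39-fold lower at 12 h than at 6 h (0.908 to 2.15).

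**Figure D1:**
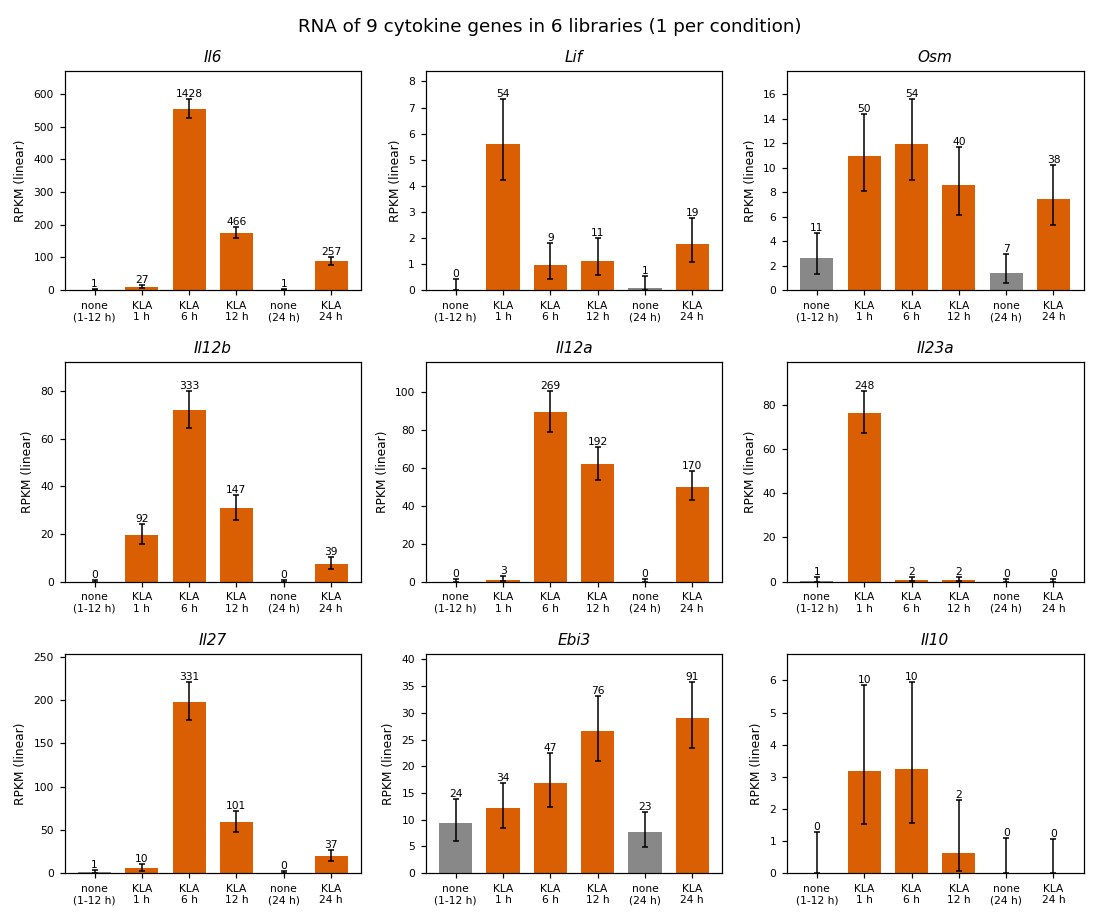
RNA level (RPKM, linear axis, each gene on its own scale) of the 9 cytokine genes in the 6 libraries, grey for untreated and orange for KLA. Error bars are 95% counting intervals and the number over each bar is its reads; Il23a and Lif are highest at 1 h, Il6, Il12a, Il12b and Il27 at 6 h, and Ebi3 at 24 h.

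The 2 chains of IL-12 were listed at 0 in both untreated libraries and were induced on different schedules. Il12b (p40; NM_008352, chr11:44213565-44227519, plus strand) stood at 19.7 RPKM (92 reads) at 1 h, 72.0 (333 reads) at 6 h, 30.8 (147 reads) at 12 h and 7.48 (39 reads) at 24 h. It was at least 28.2-fold above the control at 1 h, at least 103-fold at 6 h, at least 44.2-fold at 12 h and at least 12.6-fold at 24 h. Il12b was early and transient: it was 2.34-fold lower at 12 h than at 6 h (1.92 to 2.86) and a further 4.12-fold lower at 24 h than at 12 h (2.88 to 6.03). Il12a (p35; NM_008351, chr3:68495346-68502469, plus strand) stood at 0.984 RPKM (3 reads) at 1 h, 89.2 (269 reads) at 6 h, 61.7 (192 reads) at 12 h and 50.0 (170 reads) at 24 h. It was late and sustained, at or under the limit of detection at 1 h and at least 83.3-fold, 57.7-fold and 54.8-fold above its control at the later times. Il12a was 1.45-fold lower at 12 h than at 6 h (1.20 to 1.75), and its further 1.23-fold difference from 12 to 24 h lay within counting error (0.999 to 1.53).

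Il23a, the p19 chain that makes IL-23 with p40, was the shortest-lived of the 9. It stood at 0.334 RPKM (1 read) in the untreated library for 1 to 12 h, 76.1 (248 reads) at 1 h, 0.621 (2 reads) at 6 h, 0.602 (2 reads) at 12 h, and was listed at 0 in the untreated library for 24 h and at KLA 24 h. The 1 h library alone was high, 228-fold above the control (40.5 to 9036), and the level was 123-fold lower 5 h later (33.6 to 1018). Because it reached 1 RPKM in only 1 library, Il23a was the 1 member that did not pass the filter, and it is described but not among the genes tested. At 1 h it was the most abundant of the 9 members, 3.87-fold above Il12b (3.04 to 4.97). It lies at chr10:127733196-127735140 on the minus strand (NM_031252).

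Il27 (p28; NM_145636, chr7:133732809-133738424, minus strand) followed a course like that of Il6. It stood at 0.644 RPKM (1 read), 5.92 (10 reads) at 1 h, 198 (331 reads) at 6 h and 58.6 (101 reads) at 12 h, was listed at 0 in the untreated library for 24 h and stood at 19.6 RPKM (37 reads) at 24 h. At 6 h it was second to Il6 among the 9, 308-fold above its control (54.8 to 12186) and 33.5-fold above the 1 h level (18.0 to 70.5). Il27 was then 3.38-fold lower at 12 h than at 6 h (2.70 to 4.27) and 2.98-fold lower at 24 h than at 12 h (2.03 to 4.47). Ebi3, its partner chain (NM_015766, chr17:56092046-56096445, plus strand), was the only member above 5 RPKM without KLA. Its level was 9.30 RPKM (24 reads) and 7.60 (23 reads) in the untreated libraries for 1 to 12 h and 24 h, and 12.1 (34 reads), 16.9 (47 reads), 26.5 (76 reads) and 29.1 (91 reads) at 1, 6, 12 and 24 h of KLA. Against its untreated library Ebi3 was 1.30-fold higher at 1 h, within counting error (0.750 to 2.29), 1.82-fold at 6 h (1.09 to 3.11), 2.85-fold at 12 h (1.78 to 4.72) and 3.83-fold at 24 h (2.40 to 6.34). Its steps from 1 to 6 h (1.40-fold, 0.880 to 2.24) and from 12 to 24 h (1.10-fold, 0.799 to 1.51) lay within counting error, and with rescaled libraries the log2 ratio of the latter was -0.12. The minus-strand gene Gm16712 overlaps Ebi3 and was at most 0.413 RPKM, and the sources used here do not say whether reads were counted by strand.

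Set per length against each other, the chains changed places over time. In the 1 h library p40 RNA was 20.0-fold above p35 RNA (6.63 to 98.7) but below p19 RNA, so that the chains of IL-23 were both abundant while p35 had 3 reads, and p19 was 77.4-fold above p35 (26.2 to 378). At 6 h the p40 to p35 ratio was 0.807 (0.685 to 0.951), at 12 h 0.499 (0.400 to 0.622) and at 24 h 0.150 (0.103 to 0.213). By 24 h p35 RNA was thus 6.69-fold above p40 RNA (4.70 to 9.73). These p35 values are those of NM_008351. The other Il12a transcript, NM_001159424, was lower at 6 h, at 82.2 RPKM against 72.0 for Il12b. Whether p35 exceeded p40 at 6 h beyond counting error with that transcript was not tested. The p40 to p19 ratio turned from 0.258 at 1 h (0.201 to 0.330) to 116 at 6 h (31.9 to 961), 51.2 at 12 h (13.9 to 427) and at least 9.05 at 24 h. For IL-27, p28 RNA was 0.0693 of Ebi3 RNA in the untreated library for 1 to 12 h (0.00168 to 0.425), 0.489 at 1 h (0.215 to 1.01), 11.7-fold above it at 6 h (8.60 to 16.3), 2.21-fold above it at 12 h (1.62 to 3.02) and 0.676 of it at 24 h (0.448 to 1.00). The chain with less RNA was therefore p28 in the untreated library, Ebi3 at 6 and 12 h, and neither beyond counting error at 1 and 24 h. For the IL-35 pair, p35 RNA went from 0.0812 of Ebi3 RNA at 1 h (0.0160 to 0.258) to 5.27-fold above it at 6 h (3.85 to 7.35) and 1.72-fold above it at 24 h (1.33 to 2.24). The intervals of these ratios between genes cover counting error only. These are ratios of RNA, and protein was not measured.

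**Figure D2:**
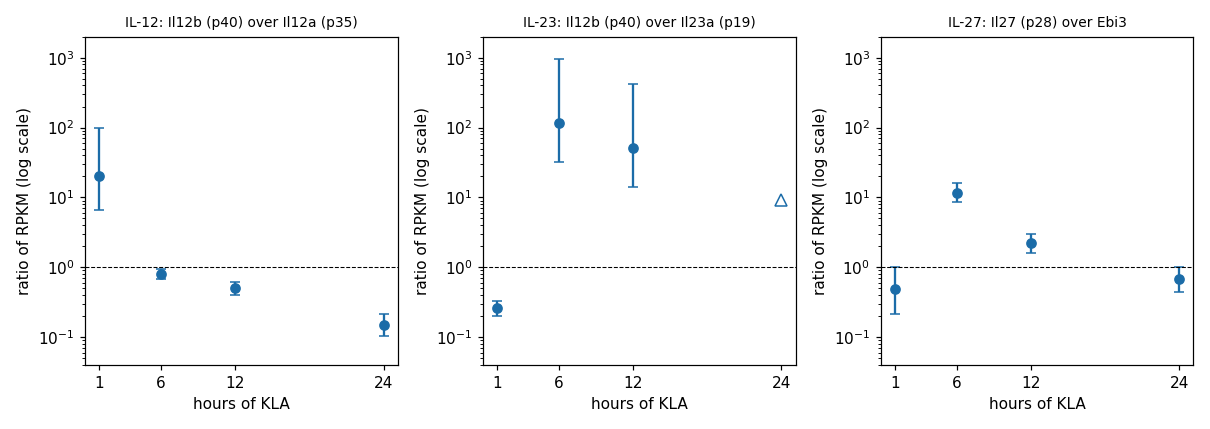
Ratio of the RPKM of paired chains at 1, 6, 12 and 24 h of KLA (log axis) with 95% counting intervals; the open triangle is a lower bound against 3 reads and the dashed line is equal RNA. The p40 to p35 ratio declines from 20.0 to 0.150, the p40 to p19 ratio goes from 0.258 to 116 between 1 and 6 h, and the p28 to Ebi3 ratio is highest at 6 h, at 11.7.

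Il10 had the lowest maximum of the 9 members. It was listed at 0 in the untreated library for 1 to 12 h, at 3.19 RPKM (10 reads) at 1 h, 3.23 (10 reads) at 6 h, 0.626 (2 reads) at 12 h, and at 0 in both 24 h libraries. The 1 and 6 h libraries were at least 3.06-fold and 3.10-fold above the control, and the level at 12 h was 5.16-fold lower than at 6 h, with an interval that only just excludes no change (1.10 to 48.4). At 6 h Il6 RNA stood at 554 RPKM against 3.23 for Il10. The NM_010548 transcript lies at chr1:132916422-132921547 on the plus strand.

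Counted together, 7 of the 9 members were at least 2-fold higher after 1 h of KLA (all but Il12a and Ebi3), beside 3.65% of the genes tested. That count includes Il23a, which is not among the genes tested, and without it 6 of 8 passed the 2-fold limit. Il6, Il10, Il12a, Il12b, Il27 and Lif reached the filter's 1 RPKM only in KLA libraries. For these members the filter therefore drew on KLA values, as the calls do. At 6 h 6 of 9 passed (Il6, Il10, Il12a, Il12b, Il27 and Osm), beside 9.35% of genes, and Ebi3 and Lif were higher beyond counting error without reaching 2-fold on this scale. At 12 h 7 of 9 passed, beside 8.88% of genes, and at 24 h 7 of 9, beside 9.98%. The 12 and 24 h counts were both made of Il6, Il12a, Il12b, Il27, Ebi3, Lif and Osm. None of the 9 was at least 2-fold lower at any time. Of all genes tested, 4.09%, 22.4%, 16.3% and 10.6% were lower at 1, 6, 12 and 24 h. With 1 added to RPKM, only Ebi3 and Osm could have been called lower. The other members were under 1 RPKM in both untreated libraries. These calls use the log2 ratio of RPKM + 1, and the comparisons at 1, 6 and 12 h share 1 untreated library. The median log2 ratio of the 9 was 2.07, 2.08, 1.42 and 1.81 at 1, 6, 12 and 24 h, where that of all genes tested was -0.16, -0.46, -0.32 and -0.09. As plain log2 ratios with members at their bound where the control had no read, the members' medians were 3.62, 4.29, 5.46 and 3.65 over the 7 or 8 with a fold. When libraries were rescaled by the median ratio of commonly expressed genes, the share of higher genes among all genes called went from 47.1% to 61.5% at 1 h, from 29.5% to 53.0% at 6 h, from 35.3% to 53.6% at 12 h, and from 48.5% to 52.5% at 24 h. The members' counts then became 7, 8, 7 and 7, beside 4.12%, 13.4%, 11.4% and 10.3% of genes tested. At 24 h the summed level of the fibroblast and mesothelial markers was 182 RPKM with KLA and 114.5 without: Col1a1, Col1a2 and Dcn were higher, while Col3a1 (10.2 against 15.5 RPKM), Lum and Upk3b were lower. The neutrophil markers summed to 122 and 46.4 RPKM, of which S100a8 alone gave 118 and 45.5. Camp was at 4.38 RPKM with KLA and at 0 without. Cxcr2 and Ltf were at 0 with KLA and at 0.762 and 0.141 RPKM without, and S100a9, Mpo and Elane were at 0 in both. The dendritic cell markers summed to 9.38 and 2.30 RPKM at 24 h and to 7.79 and 2.06 at 6 h, and of these 6 only Ccr7 passed the filter. The B cell markers summed to 7.43 RPKM with KLA and 10.8 without at 24 h, and to 5.68 and 13.2 at 12 h. The part of these cells in the members' values was not tested.

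Between KLA times the members split. From 1 to 6 h 4 were at least 2-fold higher (Il6, Il12a, Il12b and Il27), beside 8.5% of genes, and 2 were lower (Il23a and Lif), beside 15.5%. From 6 to 12 h 4 were at least 2-fold lower (Il6, Il10, Il12b and Il27), beside 2.76% of genes, and 0 were higher, beside 4.83%; over the same step Ebi3 was 1.57-fold higher (1.08 to 2.31). From 12 to 24 h 2 were lower (Il12b and Il27), beside 1.9% of genes, and 0 were higher, beside 5.33%. With rescaled libraries Il6 also reached 2-fold lower (log2 ratio -1.23), and as a difference of ratios to the 2 controls Il27 did not (-0.81). These steps compare libraries with each other without their controls, and neighbouring steps share a library. The 2 untreated libraries differed by at least 2-fold for none of the 9. Of all genes tested, 1.72% were higher and 2.42% lower in the 24 h one. Only Ebi3 and Osm could have differed so on this scale, as the other members were under 1 RPKM in both.

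The receptor chains of these cytokines were 10 genes, of which 8 were tested. Counts at least 2-fold higher and lower were 0 and 0 at 1 h, 0 and 2 at 6 h, 1 and 2 at 12 h and 1 and 4 at 24 h, beside 3.65%, 9.35%, 8.88% and 9.98% of all genes tested higher and 4.09%, 22.4%, 16.3% and 10.6% lower. The shares lower at 6 and 12 h were close to those of all genes. The receptors' median log2 ratios were -0.06, -0.30, -0.55 and -1.04, against -0.16, -0.46, -0.32 and -0.09 for all genes tested. With rescaled libraries they were 0.07, 0.09, -0.30 and -0.97, so that the sign at 1 and 6 h turned. Il6ra, the chain that binds IL-6, stood at 11.7 RPKM untreated and 8.85, 0.883 and 2.57 after 1, 6 and 12 h, and at 11.5 untreated against 3.13 at 24 h. It was lowest in the library in which Il6 was highest. Il6st, the signalling chain shared by the IL-6 family, stood at 16.1, 15.8, 5.80 and 5.92 RPKM without KLA and after 1, 6 and 12 h, and at 22.3 untreated against 9.12 at 24 h. With rescaled libraries Il6st no longer reached 2-fold at 6 h, Il6ra still did, and Il10ra reached it at 1 h. The second chain of the IL-10 receptor, Il10rb, was at 245 RPKM untreated and 104 at 24 h of KLA. The binding chain Il10ra was at 27.7 RPKM untreated and 55.1 at 1 h, and at 30.6 untreated and 16.3 at 24 h, short of 2-fold on the scale used for calls. Il12rb1, the chain that binds p40, was listed at 0 in both untreated libraries and stood at 1.42 RPKM (10 reads) at 12 h and 1.43 (11 reads) at 24 h. Il12rb2 had 20 reads untreated and 2 reads at 24 h of KLA. Il23r and Lifr did not pass the filter, and Osmr and Il27ra were at most 2.63 and 3.20 RPKM.

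Of the JAK-STAT signalling genes and their inhibitors, 12 in all with 11 tested, the number at least 2-fold higher was 2 at 1 h, 7 at 6 h and 6 in each of the 12 and 24 h libraries, beside 3.65%, 9.35%, 8.88% and 9.98% of all genes tested. None were lower, beside 4.09%, 22.4%, 16.3% and 10.6%. The list's median log2 ratio was 0.01, 1.59, 1.10 and 1.32, against -0.16, -0.46, -0.32 and -0.09 for all genes tested. Socs3, the feedback inhibitor that acts on Il6st, stood at 3.50 RPKM untreated and 180, 137 and 122 at 1, 6 and 12 h, and at 2.13 untreated against 110 at 24 h. It was high in the 1 h library, in which Il6 stood at 10.4 RPKM, Osm at 10.9 and Lif at 5.61. Which signal raised Socs3 was not tested. Socs1, an inhibitor of interferon and IL-12 receptor signalling, came later, with 1.12 RPKM untreated and 3.08, 73.3 and 81.5 after 1, 6 and 12 h, and 1.90 untreated against 88.1 at 24 h. Stat3, which carries IL-6 and IL-10 signals, stood at 23.8 RPKM untreated and 23.4, 59.3 and 47.0 after 1, 6 and 12 h. Jak2 was at 7.30 RPKM untreated and 87.5 at 6 h, while Jak1 stayed between 50.6 and 61.9 RPKM in all 6 libraries.

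**Figure D3:**
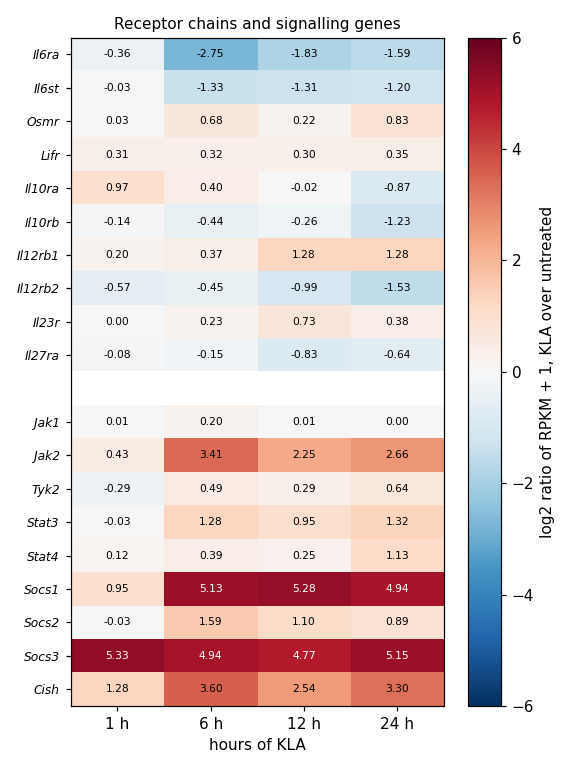
Log2 ratio of RPKM + 1, KLA over the untreated library of the same time range, for the 10 receptor chains (upper block) and 9 signalling genes (lower block) at 1, 6, 12 and 24 h. Il6ra is lowest at 6 h (-2.75), and Socs3 is high from 1 h (5.33) while Socs1 is high from 6 h (5.13).

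Of 19 transcription regulators known to act on these cytokine genes, those at least 2-fold higher numbered 8, 10, 7 and 8 over the 4 times, beside 3.65%, 9.35%, 8.88% and 9.98% of all genes tested. Those lower numbered 0, 2, 2 and 3, beside 4.09%, 22.4%, 16.3% and 10.6%. Their median log2 ratios were 0.83, 1.02, 0.81 and 0.85, against -0.16, -0.46, -0.32 and -0.09 for all genes. Several of the higher genes were highest at 1 h, as Il23a and Lif were. Nfkbiz, which encodes the IκBζ cofactor needed for Il6 and Il12b, stood at 2.20 RPKM untreated and 538, 59.9 and 21.7 after 1, 6 and 12 h, and Rel, the NF-κB subunit c-Rel, at 5.09, 41.5, 18.3 and 6.96. Fos, an AP-1 subunit, stood at 13.7 RPKM untreated, 73.9 at 1 h and 4.43 at 6 h. Irf1, an activator of Il12a and Il27, stayed high from 1 h on, at 310, 332 and 400 RPKM against 21.2 untreated, and at 384 against 16.1 at 24 h. Maf, an activator of Il10, was at 16.3 RPKM untreated and 11.9, 47.6 and 13.9 after 1, 6 and 12 h, and at 33.0 untreated against 15.1 at 24 h.

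Among 12 regulators of cytokine RNA stability and related feedback genes, the number at least 2-fold higher was 6 at 1 h, 5 at 6 h and 4 at both later times, and Zfp36l2 alone was lower from 6 h on. Of all genes tested 3.65%, 9.35%, 8.88% and 9.98% were higher at the 4 times and 4.09%, 22.4%, 16.3% and 10.6% lower. The list's median log2 ratios were 0.97, 0.49, 0.39 and 0.39, where those of all genes were -0.16, -0.46, -0.32 and -0.09. Zfp36, tristetraprolin, which brings AU-rich RNAs to decay, stood at 53.0 RPKM untreated, 813 at 1 h, 147 at 6 h and 70.2 at 12 h. Zc3h12a, regnase-1, an RNase that cuts Il6 and Il12b RNA, stood at 7.44 RPKM untreated, 65.8 at 1 h, 63.0 at 6 h, 41.2 at 12 h and, against 6.75 untreated, 26.4 at 24 h. Arid5a, which protects Il6 RNA from regnase-1, stood at 1.67 RPKM untreated, 5.05 at 1 h, 18.2 at 6 h and 11.0 at 12 h. Arid5a had its maximum in the same library as Il6, as did Tnip1 (119 RPKM) and Elavl1 (19.7 RPKM) of the same list. Zc3h12a was nearly as high there as at 1 h. Of 10 genes known to respond to IL-10 through STAT3, 5 of which are also in the lists above, the number at least 2-fold higher was 6 at 6 h and 5 at each other time, and none were lower, beside the same shares of all genes. Their median log2 ratios were 1.34, 1.26, 0.87 and 1.25. Il10 itself had 10 reads at 1 h and was listed at 0 at 24 h. Which signal raised these genes was not tested. Il4ra, 1 of the 10, stood at 6.91 RPKM untreated and 22.7 at 24 h of KLA.

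Of 10 further cytokine genes, mostly of the IL-6 and IL-10 families, 2 passed the filter. Clcf1, an IL-6 family cytokine, was at 1.11 RPKM (2 reads) untreated, 40.8 (80 reads) at 1 h, 5.67 (11 reads) at 6 h and 2.50 (5 reads) at 12 h, an early course like that of Lif. Il22, an IL-10 family cytokine best known from lymphocytes, was listed at 0 in both untreated libraries and at 1 h. It stood at 1.94 RPKM (5 reads) at 6 h, 4.52 (12 reads) at 12 h and 10.7 (31 reads) at 24 h. Markers of T and NK cells summed to 1.68 RPKM in that 24 h library and 1.29 in its control. Iltifb, a near-identical copy of Il22, was listed at 0 throughout, and reads of the 2 copies could have been assigned to either.

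For the 7 members that reached 10 RPKM, the courses most similar in shape among 5918 genes were found by Pearson's r of log2 RPKM + 1. It was taken over the 6 libraries, which share their controls and vary together with KLA. It takes no account of the size of a change. Nearest to Il6 were Cd69 and Rsad2 (both 0.9969) and Ccl22 (0.9934), and nearest to Il12a were Ifi204 (0.9994), Ifit2 (0.9984) and Olfr56 (0.9969). Il23a was nearest to Dusp1 (0.9963), which went from 27.6 RPKM untreated to 1235 at 1 h and back to 28.9 at 6 h, then to Nfkbid (0.9922) and Nup54 (0.9892). Ebi3 was nearest to Ccdc88b (0.9994), H2-K1 (0.9945) and H2-Q6 (0.9932). Il12b was nearest to Ccl9 (0.9931), Mapkapk2 (0.9896) and Rhbdf2 (0.9884). Il27 was nearest to Vasp (0.9958), Myd88 (0.9951) and Zc3hav1 (0.9938), and Osm to Rela (0.9943), Bcl2a1c (0.9905) and Cdkn1a (0.9877). The sizes of change differed widely. From the untreated library for 1 to 12 h to KLA 6 h, Rsad2 went from 12.7 to 4216 RPKM and Zc3hav1 from 32.2 to 73.9. Among the members themselves r was 0.99 for Il6 with Il27, 0.97 for Il6 with Il12a, 0.79 for Il12a with Il12b, 0.89 for Il12a with Ebi3, 0.77 for Il27 with Ebi3 and 0.32 for Il12b with Il23a.

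Peaks of SREBP1 and LXR after GW3965 were then located around the start sites. A SREBP1 peak lay within 10 kb of 4 of the 9 genes (Il10, Il23a, Ebi3 and Osm), beside 60.2% of the genes tested, and an LXR peak within 10 kb of 6 of 9 (the same 4, Il27 and Lif), beside 76.1%. The shares of the members were close to or below the background. Peak heights are the authors' normalised tag counts, whose medians were 11.1 over 13984 SREBP1 peaks and 28 over 40660 LXR peaks. The 6 SREBP1 peaks near members had counts of 9.02 to 11.9, from the first quartile of the list (9.02) to just above its median. They lay 1090 and 1708 bases inside Il10, 183 and 3390 bases inside Osm, 4953 bases before Il23a and 6867 bases before Ebi3. The last 2 were nearer to other genes, 298 bases from the start of Pan2 and 497 from that of Zfp119b.

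The highest LXR peaks within 10 kb were at Il27 and Il23a. The Il27 peak (chr7:133742987-133743171) had a count of 117, rank 2240 by score or the top 5.51%, and lay 4655 bases before the start site. The other Il27 peak, with a count of 32.0, lay 7890 bases after the start site, within Apobr. The Il23a peak (chr10:127735456-127735640) had a count of 80.0 and lay 408 bases before the start site. Other LXR peaks lay 965 and 5455 bases before Il23a, the latter within Pan2. Il10 had 4 LXR peaks, from 4285 bases before to 6177 bases after its start, with counts of 16.0 to 28.0. The Ebi3 peak was centred 7 bases after the start site with a count of 28.0. Osm had 3 and Lif had 1, at 3047 bases after its start with a count of 16.0. Of the 6 SREBP1 peaks 2 shared at least 1 base with an LXR peak, against 27.3% of the whole list: by 9 bases in Il10 and by 180 in Osm, where the centres were 10 bases apart.

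Il6, Il12a and Il12b had no peak of either factor within 10 kb. For Il6 the nearest SREBP1 peak was 59886 bases and the nearest LXR peak 64843 bases from the start site. Il12a had an LXR peak with a count of 324, rank 329, at 24047 bases before its nearest start (chr3:68470427-68470611), and both factors had a peak at about 18 kb after it (18087 and 18228 bases). Il12b had a SREBP1 and an LXR peak that overlapped by 166 bases, centred 14867 and 14891 bases after its start, the LXR one with a count of 74.7. Peaks just outside the 10 kb limit included an Il12b LXR peak at 10186 bases before its start. For Il27 they included an LXR peak at 10115 bases after the start, with a count of 52.0, and a SREBP1 peak at 10485 bases after it. That LXR peak was 213 bases from the start of Apobr, and that SREBP1 peak 145 bases from the start of Cln3. Ebi3 had an LXR peak at 10628 bases after its start, with a count of 77.3. The peaks came from cells given GW3965 and the RNA from cells given KLA, so the lists and the levels do not describe the same cells.

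**Figure D4:**
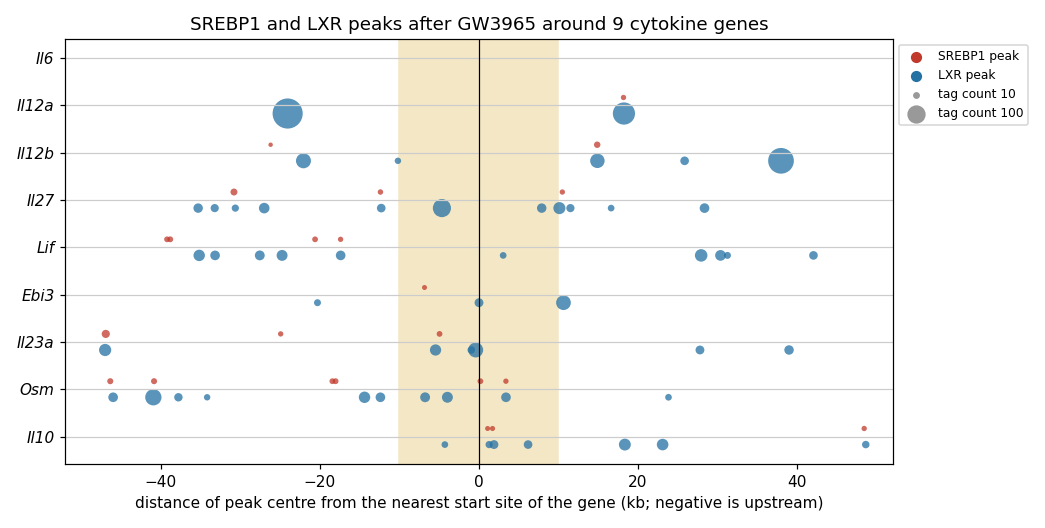
Distance (kb) of SREBP1 (red) and LXR (blue) peak centres from the nearest start site of each gene, within 50 kb, with symbol area in proportion to the authors' normalised tag count and the 10 kb window shaded. Il6 has no peak in the range shown, and the highest LXR peak, with a count of 324, lies upstream of Il12a outside the window.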

How the data were processed

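Poly(A) RNA of 6 macrophage libraries and 2 ChIP-seq peak lists were analysed, 8 of the 103 samples described. RPKM per RefSeq transcript on build mm9 was deposited by the authors in 1 table. The submitters' processing notes name Bowtie 0.12.7, STAR, HOMER and mm9 without their roles, and the sources used here do not say whether strand was used. HOMER called the peaks, per the file headers, at a false discovery rate of 0.001 and at least 4-fold over input and over the surrounding 10000 bases. Peak height is a signal that the authors scaled to 10000000 tags, and the score and the fold (a ratio over input) are the authors' values. The SREBP1 header names a combined directory and an untreated input, and which samples were combined is unknown. For LXR the header gives 5 h of GW3965, with input from cells after 24 h of KLA, while that sample's treatment label reads as a control. The SREBP1 label gives 18 h. Lists and samples were used under their titles.

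Reads were recovered as RPKM × length × library total, and 99.97% of values were whole within 0.01 read. Changes were taken as log2 ratios of RPKM + 1, a scale that shrinks changes of weak genes, and a gene was called at 2-fold or more. Genes tested had at least 1 RPKM in 2 libraries (10605). Folds of single genes are plain RPKM ratios with 95% exact conditional binomial intervals, checked on simulated data, and bounds use a floor of 3 reads per library. No p-values are given, as there was 1 library per condition, so no count test between groups was run. All 9 members are named, with examples from the lists chosen after their values were seen and, for members of at least 10 RPKM, the 3 genes of highest r. The members and lists were chosen with earlier results of these data known. Alternatives changed the pseudocount, scaling, control library, transcript, filter and peak limits. Python 3.11.15, pandas 2.3.3 and SciPy 1.17.1 were used.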

Additional observations from a re-analysis of the deposited data

How the results depend on the processing

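Under pseudocounts of 0.1 and 3, median-ratio rescaling, the other untreated library, the longest transcript, members past the filter only and plain ratios, the numbers of cytokines at least 2-fold higher stayed between 6 and 8 of 9 at every time. Of the 35 alternative values of these counts and of the peak counts, 33 were within 1.5 times the value reported. The exceptions were the genes with a SREBP1 peak, which went from 4 to 8 with a window of 50 kb, and the SREBP1 peaks overlapping an LXR peak, which went from 2 to 1 with centres within 100 bases; a wider window and a stricter limit admit more and fewer by construction. Of 270 alternative log2 ratios of single members, 0 changed sign where the ratio was beyond counting error, and 29 moved by more than counting error. Most of these were pseudocounts applied to Il12a, Il12b, Il10 and Lif, whose controls had no read. A change of pseudocount cannot turn a sign, and for members with 1 transcript the longest transcript is the one already used. Much of the count of 0 was therefore fixed by construction. Counting intervals were also wide where controls had few reads. Il6 at 1 h went from 3.00 to 4.34 with a pseudocount of 0.1 and was still within its interval. The scaling factors of KLA and control libraries differed by 0.19, 0.48, 0.33 and 0.07 (log2) at 1, 6, 12 and 24 h. With them Il6 at 6 h went from 8.61 to 8.96, and Il12a at 24 h, whose control had no read, from 5.67 to 5.55. From 12 to 24 h rescaling took Il6 from -0.98 to -1.23. As a difference of ratios to their own controls, Il27 from 12 to 24 h was -0.81 in place of -1.53, as its controls had 1 and 0 reads. No paired analysis was possible because each condition had 1 library. Depth limits Il10 (0 to 10 reads), Il23a after 1 h (0 to 2 reads), Il12a at 1 h (3 reads), Lif from 6 h on (9 to 19 reads) and the untreated levels.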
